A study of Mus musculus with 6 samples.

Results

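Chromatin accessibility around 6 genes of the stem cell GATA, SCL and LMO2 complex (Gata2, Lyl1, Tal1, Lmo2, Ldb1 and Zfpm1) was compared between unconfined and confined mouse long-term haematopoietic stem cells (LT-HSCs). The regions were all 44 of 42632 ATAC-seq peaks whose midpoint lay within 50 kb of an end of 1 of these genes and closer to it than to an end of any other protein-coding gene of the mm10 RefSeq annotation. ATAC-seq uses a transposase to insert sequencing adapters into open DNA, so more counts in a peak mean more accessible chromatin. Cells came from the marrow of C57BL/6 mice between 10 and 16 weeks old. The labels call them LT-HSCs, and the sort kept cells negative for lineage markers, CD34 and Flt3 and positive for Sca1 and cKit. Unconfined cells (3 libraries) stayed 16 h in suspension. Confined cells (3 libraries) had 13 h of suspension, 0.5 h to settle on glass coated with fibronectin and 2 h beneath a 5 µm ceiling, after which a dissociation reagent freed them. Every confined library was also attached and detached, so the effects of these steps and of the ceiling cannot be told apart. Same-numbered libraries share an experimental batch in the labels, so each batch holds 1 library of each group. It is not stated whether each library came from separate animals, and p-values measure the spread between these libraries.

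The 6 proteins work as 1 regulatory module in blood stem cells and in red cell and platelet precursors. GATA2 is a zinc finger protein that binds GATA sites. TAL1 (also called SCL) and LYL1 are related basic helix-loop-helix proteins that bind E-box sites together with E proteins. LMO2 does not bind DNA itself and bridges the helix-loop-helix and GATA proteins, and LDB1 binds LMO2 and pairs with itself to link distant sites. ZFPM1 (also called FOG1) is a zinc finger cofactor that binds GATA proteins and recruits a co-repressor complex. Several of these genes are known to be controlled by enhancers inside or beside the gene that other members of the module bind.

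Each peak was 700 bp wide. Zfpm1 held 12 of the 44 peaks, Lyl1 10, Gata2 7, Lmo2 7, Tal1 4 and Ldb1 4. A peak was called a gene-end peak where its midpoint lay within 1 kb of either end of the gene, and distal otherwise. There were 4 gene-end peaks, 1 each at Lyl1, Tal1, Lmo2 and Zfpm1, and 40 distal peaks. The midpoint lay inside the peak's own gene for 20 peaks, inside no protein-coding gene for 15 and inside another gene for 9. Those 9 are all the distal Lyl1 peaks, which lie inside the neighbouring gene Nfix. The facing ends of Lyl1 (chr8:84701423-84704716) and Nfix are 4 bp apart, so the link of these peaks to Lyl1 rather than Nfix turns on 4 bp. The annotation used here gives gene starts and ends but no exons, so a place in an exon or intron is not stated. The farthest member peak lay 39559 bp from its gene (Lyl1), and the nearest peak left out lay 51061 bp from its gene (Lmo2). At the 1 kb limit, the outermost gene-end peak lay 459 bp from its gene end (Lmo2) and the innermost distal peak 2370 bp (Lyl1). Below, a peak is named by the distance in kb from the gene's lower-coordinate end to its midpoint.

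The 4 upstream sequences below are the 250 bases before an annotated RefSeq start (GRCm38.p6, that is mm10), all on the plus strand. They are shown as the start regions of the Lyl1 peak that fell and, beside it, of 3 peaks at starts that did not pass the test or did not enter it: Lyl1 (chr8:84701207-84701456) and Gata2 (chr6:88198414-88198663) lie wholly under a peak, Zfpm1 (chr8:122281891-122282140) shares 120 bp with its gene-end peak, and Tal1 (chr4:115056176-115056425) ends just before its own. Capitals mark matches, on either strand, to the motifs named after them.
Lyl1: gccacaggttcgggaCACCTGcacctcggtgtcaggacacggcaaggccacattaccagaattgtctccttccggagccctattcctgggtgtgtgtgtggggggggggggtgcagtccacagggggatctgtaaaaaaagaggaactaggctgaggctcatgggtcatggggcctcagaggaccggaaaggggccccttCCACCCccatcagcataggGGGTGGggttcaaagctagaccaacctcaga
Gata2: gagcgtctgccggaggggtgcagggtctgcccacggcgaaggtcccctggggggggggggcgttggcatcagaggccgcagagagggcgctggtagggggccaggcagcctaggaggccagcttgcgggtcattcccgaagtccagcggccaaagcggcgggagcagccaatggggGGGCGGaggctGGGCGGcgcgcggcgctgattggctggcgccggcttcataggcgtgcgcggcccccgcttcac
Zfpm1: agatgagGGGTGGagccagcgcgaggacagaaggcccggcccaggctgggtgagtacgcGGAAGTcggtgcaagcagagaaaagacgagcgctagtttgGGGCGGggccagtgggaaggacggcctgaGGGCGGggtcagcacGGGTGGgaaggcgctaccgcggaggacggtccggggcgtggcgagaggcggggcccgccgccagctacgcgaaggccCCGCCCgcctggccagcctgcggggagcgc
Tal1: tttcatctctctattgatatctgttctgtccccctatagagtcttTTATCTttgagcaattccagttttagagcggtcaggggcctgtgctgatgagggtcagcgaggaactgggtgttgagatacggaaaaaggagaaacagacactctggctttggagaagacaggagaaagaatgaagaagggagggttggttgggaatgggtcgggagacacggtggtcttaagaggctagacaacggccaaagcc

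The motifs searched were the GATA core (AGATAA or TGATAA), the E-box (CANNTG), the ETS core (GGAAGT), the RUNX core (TGTGGT) and the KLF/SP core (CCACCC or CCGCCC). The RefSeq promoter table held 9 windows of 5 of the genes, and Lmo2 had no entry. The AGATAA core occurred in 2 of the 9 windows, at Tal1 and at 1 of the 3 Ldb1 starts, against 9.99% of all 32851 windows of the same length. No member window held TGATAA, which occurred in 7.94% of all windows. The E-box CANNTG occurred in 2 of the 9 windows, at Lyl1 and Ldb1, against 66.2% of all windows. The Lyl1 window held its 1 E-box in the form CAGGTG (in 17.2% of all windows) and matches to CCACCC (in 28.1%) on both strands. The Gata2 window held matches to CCGCCC alone (in 32.7% of all windows), and the Zfpm1 window held 1 GGAAGT (in 19.7%) beside both KLF/SP forms. These matches describe letters in the window and show no binding.

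Of the 44 peaks, 19 held enough counts to enter the edgeR quasi-likelihood test, run on the whole table of 9084 tested peaks. Of these 19, 2 were lower in confined cells and 0 were higher at an adjusted p under 0.05. These were the Lyl1 gene-end peak and the Gata2 peak at 9.34 kb. At an unadjusted p under 0.05, edgeR placed 3 lower and 0 higher, and DESeq2 and limma-voom called 1 lower and 0 higher each. Over all tested peaks, 2.42% were called lower and 5.79% higher. The median log2 fold change was -0.29 over the 19 tested member peaks and -0.02 over all tested peaks, with 11 member peaks below 0 and 8 above. The classes differed: the 3 tested gene-end members had a median of -0.98 against -0.26 over all tested gene-end peaks, and the 16 tested distal members 0.10 (8 below 0 and 8 above) against 0.27 over all tested distal peaks. The filter can let in a peak through the group where it is high, and both called peaks entered through the unconfined group. In CPM of all counts, the Gata2 peak had 75.4, 77.3 and 101 in unconfined and 29.3, 13.6 and 15.6 in confined libraries. The Lyl1 gene-end peak had 213, 106 and 154 against 41.1, 31.6 and 0. The filter asks for 31.0 CPM in 3 libraries, so the numbers of lower and higher calls depend on it. The other 25 peaks are described by their counts. Fitted with no filter, all 44 member peaks had a median of -0.29 against 0.12 over all 42632 peaks. That fit called 4 member peaks lower (Gata2 at 9.34 kb and the gene-end peaks of Lyl1, Tal1 and Zfpm1) and 1 higher (Zfpm1 at 22.48 kb). Scaling by total counts in place of TMM moved the median of all tested peaks from -0.02 to -0.68. With that scaling 6 member peaks were called lower, and fold changes on it are read against that median. No share over all peaks is given, here or below, for unadjusted p, DESeq2, limma-voom or the other fits. Their counts therefore describe the counted peaks alone.

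**Figure D1:**
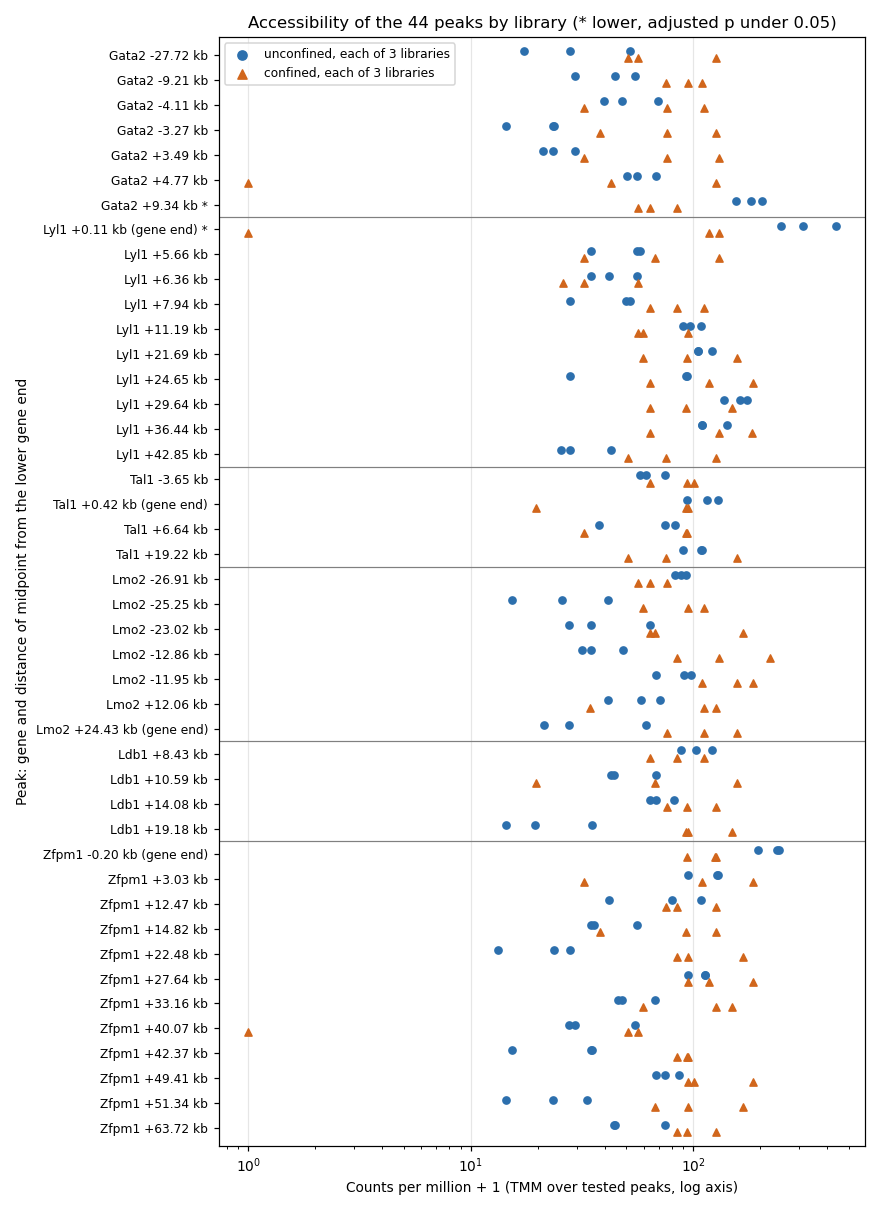
Accessibility of the 44 peaks in each library, in TMM-scaled CPM plus 1 on a log axis (circles, 3 unconfined libraries; triangles, 3 confined libraries). The Lyl1 gene-end peak and the Gata2 peak at 9.34 kb (asterisks) have all 3 triangles left of all 3 circles, and several untested peaks lie the other way.

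The depth of the libraries bears on every value. Total counts in peaks were 304898 to 1229478 in unconfined and 128257 to 340922 in confined libraries. Member peaks with 3 counts or fewer numbered 0 to 4 in unconfined libraries and 1, 11 and 27 in confined libraries 1, 2 and 3. With TMM scaling over tested peaks, 3 counts correspond to 25.0, 55.7 and 94.3 CPM (counts set to 1 common library size) in confined libraries 1 to 3, and to 5.70 to 20.2 CPM in the unconfined ones. Single confined values of untested peaks, and of tested peaks with few confined counts, are therefore near the counting limit. Gene-end peaks of all genes took 38.6% to 43.0% of counts in unconfined and 23.9% to 31.0% in confined libraries, and the part of this wider difference in the member results was not tested.

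Confined libraries 2 and 3 showed little of the unconfined peak-to-peak pattern, both at the module's loci and over all peaks, and confined library 1 showed part of it. Across the 44 peaks, log2 CPM of each unconfined library correlated with the mean of the other unconfined libraries at r = 0.824, 0.906 and 0.910. In confined libraries 1, 2 and 3, r with the unconfined libraries was 0.366, 0.0150 and -0.201. Over all 42632 peaks these values were 0.717 to 0.807 in unconfined and 0.528, 0.0367 and -0.0185 in confined libraries. These are correlations across peaks that share a library, given as a description. Ranked by the other unconfined libraries, the top 11 member peaks held 3.83 to 6.92 times the counts of the bottom 11 in unconfined libraries, and 1.46, 1.06 and 0.879 times in confined libraries 1 to 3. This ratio was not computed over all peaks, so it does not set the member peaks apart.

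Gata2 (chr6:88193891-88207032) had 7 peaks, all distal, and 1 of them passed the test as lower. The peak at 9.34 kb (chr6:88202878-88203577) lies inside the gene, in the part where an intronic enhancer needed for stem cell formation has been described. Whether the peak is that element was not tested. In libraries 1 to 3 it held 23, 95 and 99 counts without confinement against 10, 3 and 2 with it. Scaled, this was 179 ± 23.8 CPM and 67.3 ± 14.4 CPM in the same order (SD, n = 3 each). The groups did not overlap, which by itself makes the value lower in 3 of 3 same-numbered pairs. The log2 fold change was -1.34 (SE 0.38, edgeR adjusted p = 0.0228). In unconfined cells it ranked 3 of the 44 peaks by mean CPM, and in confined cells 40. The 3 and 2 counts of confined libraries 2 and 3 lie at or under the limit of 3 counts. Its confined mean, SD and rank are therefore uncertain. The call was kept in 7 of 15 alternative fits, with adjusted p from 0.00467 to 0.186. It was lost with the replicate block (-1.29, adjusted p = 0.0862), loess offsets (-0.99, 0.186), DESeq2 (0.0982), limma-voom (0.0693), a filter blind to group (0.0529), without unconfined library 3 (0.0701) or confined library 2 (0.0673), and with confined library 1 alone (0.184). The direction was the same in all 15.

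The peak over the second annotated Gata2 start (at 4.77 kb, chr6:88198309-88199008), whose upstream sequence is printed above, did not enter the test. It held 10, 26 and 27 counts without confinement against 5, 0 and 4 with it, and the groups overlapped on the TMM scale. The peak at -9.21 kb, below the gene (chr6:88184331-88185030) held 8, 23 and 14 counts without confinement against 13, 4 and 3 with it. All 3 confined values of that peak, 74.3 to 108 CPM, lay above the unconfined 28.6 to 53.8 CPM. On the TMM scale 37.2% of all peaks were of that kind, and with total counts the groups overlapped at this peak. The other 4 Gata2 peaks held 2 to 36 counts in unconfined and 1 to 9 in confined libraries. No peak of the table lay within 1 kb of either end of Gata2.

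Tal1 (chr4:115056426-115071755) had 4 peaks, and none of its 3 tested peaks passed the test. The gene-end peak (at 0.42 kb, chr4:115056496-115057195) lies just inside the first annotated start. It held 17, 49 and 63 counts without confinement against 11, 1 and 3 with it. The scaled values were 112 ± 17.9 and 68.2 ± 43.0 CPM (SD, n = 3 each), lower in 3 of 3 pairs but overlapping between groups, with a log2 fold change of -0.61 (SE 0.42, edgeR adjusted p = 0.371). Total-count scaling (-1.28, adjusted p = 0.0332) and the fit with no filter (-1.51, adjusted p = 0.0454) passed the threshold. Over its 15 alternatives the adjusted p ran from 0.0332 to 0.556.

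The Tal1 peak at 19.22 kb (chr4:115075298-115075997) lies beyond the gene, in the region where a stem cell enhancer of Tal1 has been described. It held 16, 47 and 53 counts without confinement against 6, 4 and 5 with it, or 102 ± 10.8 and 93.8 ± 56.2 CPM (SD, n = 3 each). The log2 fold change was -0.44 (SE 0.42, edgeR adjusted p = 0.549), within the spread of the confined libraries. The peak at 6.64 kb, inside the gene, held 11, 43 and 18 against 11, 5 and 1 counts, with a log2 fold change of 0.38 (SE 0.51, adjusted p = 0.684). That sign turned negative with total counts (-0.24) and with loess offsets (-0.48). The untested peak at -3.65 kb, below the gene held 9, 30 and 36 against 12, 5 and 2 counts.

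Lyl1 had 10 peaks, and its gene-end peak (at 0.11 kb, chr8:84701187-84701886), which covers the annotated start and the whole window printed above, showed the largest fall of the 19 tested member peaks. It held 65, 130 and 152 counts without confinement against 14, 7 and 0 with it. Scaled, it had 437, 247 and 310 CPM in unconfined cells, the highest of the 44 peaks in each of these libraries. In confined cells it had 117, 130 and 0 CPM, where 0 counts in library 3 allow up to 94.3 CPM. The means were 331 ± 96.8 and 82.2 ± 71.5 CPM (SD, n = 3 each), with no overlap and so lower in 3 of 3 pairs. Its rank among the 44 peaks by mean CPM went from 1 to 30. The 0 counts of confined library 3 pull that mean down, so the confined mean, SD and rank are uncertain. The log2 fold change was -1.64 (SE 0.43, edgeR adjusted p = 0.0130). The call held in 13 of 15 alternatives, the replicate block among them (-1.88, adjusted p = 0.0254), with adjusted p from 0.00551 to 0.304. It was lost with loess offsets (-0.84, adjusted p = 0.304), which centre fold changes at each abundance, and with confined library 1 kept alone (-2.10, adjusted p = 0.132).

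The 9 distal Lyl1 peaks lie at 5.66 to 42.85 kb, all inside Nfix, and none of the 5 tested passed. The most accessible of them in unconfined cells, at 29.64 kb (chr8:84730709-84731408), held 24, 72 and 85 counts without confinement against 11, 8 and 2 with it. Its log2 fold change was -0.60 (SE 0.36, edgeR adjusted p = 0.290). At 11.19 kb the counts were 16, 47 and 47 against 7, 3 and 3, with a log2 fold change of -0.58 (SE 0.43, adjusted p = 0.418). Both peaks passed with total-count scaling (adjusted p = 0.0251 and 0.0346), where the median of all tested peaks was -0.68. Over their 15 alternatives each, adjusted p ran from 0.0251 to 0.758 and from 0.0346 to 0.620.

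The other 3 tested Lyl1 peaks did not keep 1 sign across settings. At 21.69 kb the counts were 18, 55 and 51 against 7, 5 and 5, with a log2 fold change of -0.36 (SE 0.39), which was near 0 without confined library 1. At 24.65 kb they were 4, 49 and 45 against 14, 10 and 2 (0.61, SE 0.39), and at 36.44 kb 21, 57 and 53 against 22, 7 and 2 (0.39, SE 0.33). Both of these positive values turned negative with total counts (-0.01 and -0.32). The 4 untested distal Lyl1 peaks held 4 to 30 counts in unconfined and 1 to 10 in confined libraries.

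**Figure D2:**
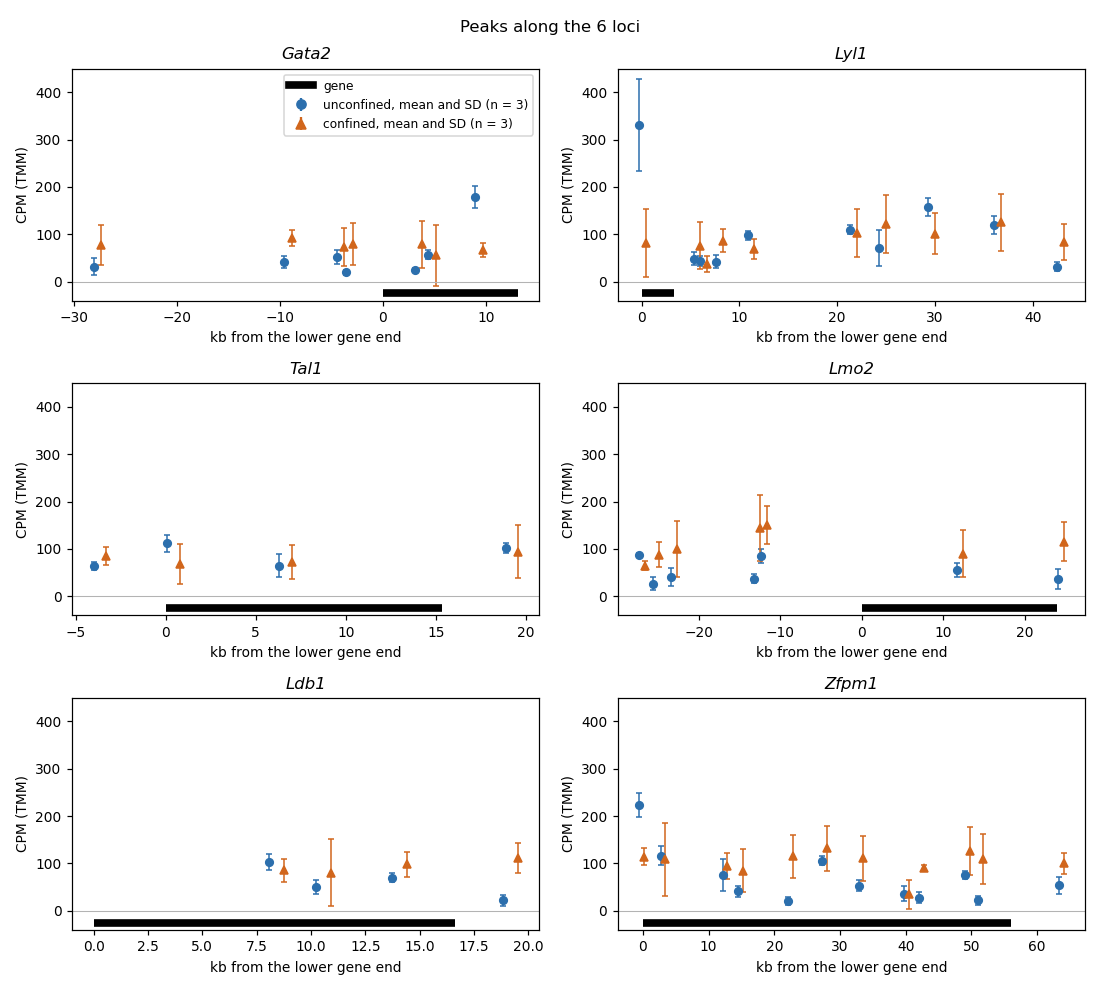
Mean TMM-scaled CPM with SD (n = 3) of each peak against its distance in kb from the lower gene end, per locus, with circles for unconfined and triangles for confined cells, set slightly apart sideways, and the gene as a black bar. The tall unconfined points are the Lyl1 gene-end peak (331 CPM), the Zfpm1 gene-end peak (224 CPM) and the Gata2 peak at 9.34 kb (179 CPM), while the confined points run at a more even height along each locus.

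Of the bridging factors, Lmo2 (chr2:103957903-103981878) had 7 peaks, of which 2 were tested and neither passed. The peak at -11.95 kb, below the gene (chr2:103945608-103946307) held 10, 51 and 44 counts without confinement against 13, 10 and 5 with it. Its scaled values were 84.6 ± 15.5 and 150 ± 39.1 CPM (SD, n = 3 each), with every confined value above every unconfined one, and it ranked 1 among the 44 peaks in confined cells against 14 in unconfined cells. The log2 fold change was 0.62 (SE 0.35, edgeR adjusted p = 0.267). It was -0.02 with total counts, where the groups overlapped. The peak at -26.91 kb, below the gene held 13, 43 and 45 against 9, 3 and 2 counts. All its confined values lay below the unconfined ones, by a log2 fold change of -0.35 (SE 0.43, adjusted p = 0.654).

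The Lmo2 gene-end peak (at 24.43 kb, chr2:103981988-103982687) lies 459 bp outside the higher-coordinate end of the gene. It held 9, 14 and 10 counts without confinement against 9, 6 and 5 with it and was not tested. Its confined CPM of 75.0, 111 and 157 lay above the unconfined 60.5, 26.6 and 20.4, but the groups overlapped with total counts. The other 4 Lmo2 peaks held 5 to 37 counts in unconfined and 2 to 10 in confined libraries, and in 3 of them every confined CPM lay above every unconfined one. On the TMM scale 37.2% of all peaks were of that kind, so a peak of this kind is common in these libraries. A further 6 peaks nearest to Lmo2 lie 51061 to 76568 bp from the gene, outside the 50 kb limit, with 1 to 45 counts in unconfined and 1 to 12 in confined libraries.

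Ldb1 (chr19:46031525-46048145) had 4 distal peaks, of which the 2 tested each cover an annotated start. At 8.43 kb (chr19:46039605-46040304) the counts were 13, 54 and 59 without confinement and 10, 6 and 2 with it. The log2 fold change was -0.29 (SE 0.38, edgeR adjusted p = 0.677). At 14.08 kb (chr19:46045252-46045951) they were 12, 33 and 33 against 9, 5 and 4, with a log2 fold change of 0.39 (SE 0.45, adjusted p = 0.635). That value turned negative with total counts (-0.27) and with loess offsets (-0.12). Each of these differences is smaller than its standard error. Of the untested peaks, the one at 10.59 kb held 10, 22 and 21 against 8, 1 and 5 counts and the one at 19.18 kb, above the gene, 2, 18 and 9 against 11, 8 and 3. In the latter every confined CPM lay above every unconfined one, and without confined library 3 it entered the test and passed as higher (2.05, adjusted p = 0.0362).

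Zfpm1 (chr8:122281856-122337862), the GATA cofactor, had 12 peaks, 5 of them tested, and none passed. Its gene-end peak (at -0.20 kb, chr8:122281311-122282010) held 29, 127 and 116 counts without confinement against 15, 5 and 4 with it. The scaled values were 224 ± 25.5 and 115 ± 18.8 CPM (SD, n = 3 each), with no overlap and so lower in 3 of 3 pairs. The log2 fold change was -0.98 (SE 0.35, edgeR adjusted p = 0.0717). The threshold was passed in 5 of 15 alternatives: total counts (-1.64, adjusted p = 0.0142), no filter (-1.85, 0.0290), and without unconfined library 1 (0.0479), confined library 1 (0.0462) or confined library 3 (0.0318). The highest adjusted p, 0.598, came with loess offsets (-0.41).

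The 4 tested distal Zfpm1 peaks lie inside the gene. At 49.41 kb the counts were 11, 45 and 33 against 12, 10 and 3. Every confined CPM lay above every unconfined one on the TMM scale, but the groups overlapped with total counts. The log2 fold change was 0.68 (SE 0.38, edgeR adjusted p = 0.258). At 27.64 kb the counts were 14, 59 and 55 against 14, 10 and 3 (0.27, SE 0.34). At 12.47 kb they were 16, 42 and 20 against 10, 4 and 4 (0.35, SE 0.47), and at 3.03 kb 14, 67 and 63 against 13, 10 and 1 (-0.07, SE 0.36). The adjusted p of these 3 peaks ran from 0.668 to 0.937. The signs at 12.47 and 27.64 kb turned negative with total counts (-0.28 and -0.38), and that at 49.41 kb with no filter (-0.17). The peak at 22.48 kb, which passed as higher with no filter (1.63, adjusted p = 0.0498), held 4, 12 and 6 counts against 10, 9 and 3. It was not tested with the filter on all 6 libraries. Without confined library 3 it entered the test and passed as higher (2.38, adjusted p = 0.0229). The remaining 6 Zfpm1 peaks held 2 to 35 counts in unconfined and 0 to 11 in confined libraries.

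**Figure D3:**
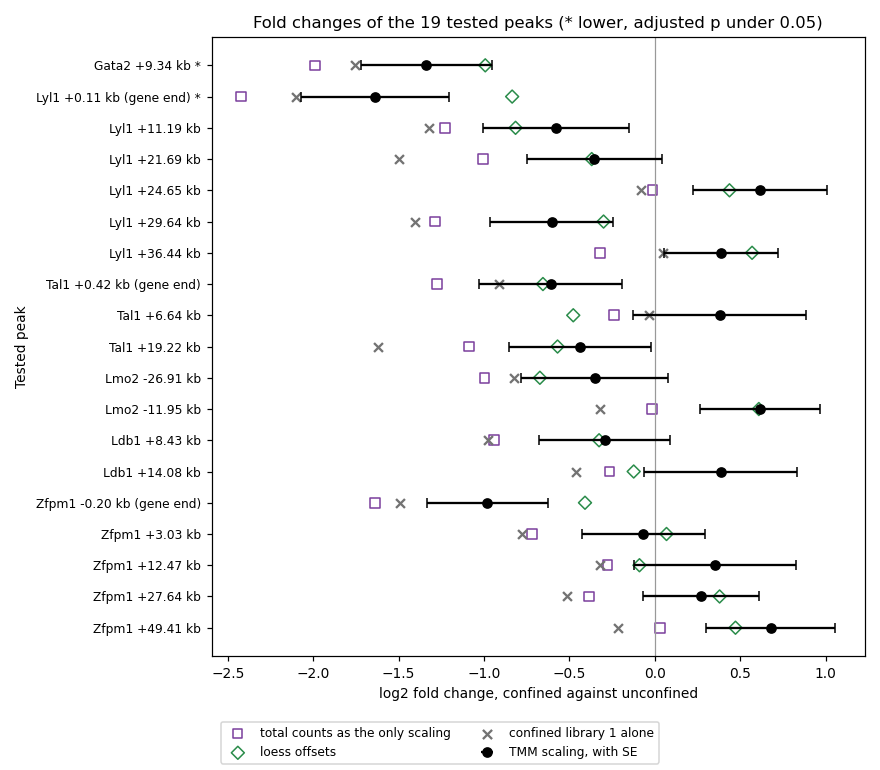
Log2 fold change of confined against unconfined cells for the 19 tested peaks under TMM scaling (filled points, bars are 1 SE), total counts (squares), loess offsets (diamonds) and with confined library 1 alone (crosses). Total counts place the values further left for every peak, and the Lyl1 gene-end value moves from -1.64 to -0.84 with loess offsets.

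On the TMM scale, 4 of the 44 peaks had every confined value below every unconfined one: the Lyl1 and Zfpm1 gene-end peaks, Gata2 at 9.34 kb and Lmo2 at -26.91 kb. Over all 42632 peaks 4.33% were of that kind. The opposite held for 16 member peaks, 5 each at Lmo2 and Zfpm1, 3 at Gata2, 2 at Lyl1 and 1 at Ldb1, against 37.2% of all peaks, so the share of members above is near the background. With total counts as the scaling, 12 member peaks lay wholly below (13.2% of all peaks did) and 6 wholly above (16.8%). Which of these 2 counts is larger therefore depends on the scaling.

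Sums of counts over each gene's linked peaks rest on more counts than single peaks, and were fitted with edgeR for every gene. Lyl1 was lower in confined cells, and the other 5 genes did not pass. The Lyl1 sum was 166, 518 and 516 counts without confinement against 102, 60 and 22 with it, or 638 ± 84.9 and 343 ± 88.1 CPM (SD, n = 3 each). The groups did not overlap, and the log2 fold change was -0.82 (SE 0.19, edgeR adjusted p = 0.00495). Of 10028 genes tested, 11.1% were lower and 9.57% higher. The Lyl1 call held in 14 of 15 alternatives, with adjusted p from 0.000445 to 0.0716, and was lost with confined library 1 alone (-0.72, adjusted p = 0.0716). The sum is mostly made of the 9 peaks inside Nfix, so it describes the joint Lyl1 and Nfix interval.

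Tal1 had the next largest difference, with sums of 53, 169 and 170 against 40, 15 and 11 counts and no overlap (-0.66, SE 0.25, edgeR adjusted p = 0.0626). It passed in 4 of 15 alternatives, with adjusted p from 0.0139 to 0.508. Gata2 held 57, 234 and 189 against 61, 25 and 19 counts, all confined values below (-0.24, SE 0.22, adjusted p = 0.445). Lmo2 held 54, 216 and 162 against 60, 47 and 28 counts, all confined values above (0.32, SE 0.21, adjusted p = 0.277). The Zfpm1 sum (-0.10, SE 0.17) and the Ldb1 sum (-0.04, SE 0.25) overlapped between groups. The share of all genes whose sums do not overlap was not counted, so the absence of overlap describes the member genes alone.

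The same sums were fitted separately for gene-end and distal peaks, each table scaled on its own, so values are compared within a table only. In the gene-end table, Lyl1 was lower (-1.53, SE 0.42, edgeR adjusted p = 0.0225), where 2.56% of 5032 genes were lower and 6.38% higher. That call held in 11 of 15 alternatives, with adjusted p from 0.00267 to 0.189, and was lost with loess offsets (-0.93, adjusted p = 0.189), without unconfined library 1 (0.0641) or 3 (0.103), and with confined library 1 alone (0.103). Zfpm1 (-0.89, SE 0.34, adjusted p = 0.0899) and Tal1 (-0.52, SE 0.43, adjusted p = 0.484) did not pass. Lmo2 was not tested, but without confined library 1 it entered and passed as higher (1.97, adjusted p = 0.0252).

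In the distal table, 8.23% of 5529 genes were lower and 3.24% higher. Lyl1 was lower there (-0.83, SE 0.20, edgeR adjusted p = 0.00560), with counts of 101, 388 and 364 against 88, 53 and 22. The call held in 13 of 15 alternatives, and not with loess offsets (-0.54, adjusted p = 0.0550) or confined library 1 alone (-0.69, adjusted p = 0.243). Tal1 passed narrowly, with 36, 120 and 107 against 29, 14 and 8 counts (-0.80, SE 0.27, adjusted p = 0.0481). That call was lost in 11 of 15 alternatives, among them each library left out except confined library 1, and its adjusted p ran from 0.0160 to 0.541. Gata2 did not pass (-0.61, SE 0.23, adjusted p = 0.0692), but did with the replicate block (-0.66, adjusted p = 0.0488), with limma-voom (0.0493) and without confined library 1 (-0.92, 0.00923), over a range of 0.00923 to 0.695. Ldb1 (-0.41, SE 0.25), Zfpm1 (-0.18, SE 0.19) and Lmo2 (-0.16, SE 0.22) did not pass, with adjusted p from 0.282 to 0.667. All Gata2 and Ldb1 peaks are distal, so the same counts gave -0.24 and -0.04 in the table of all linked peaks and -0.61 and -0.41 here, and their size depends on the scaling of the table.

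The share of all library counts that fell in the 44 peaks amounts to scaling by total counts. It was 0.162%, 0.143% and 0.157% in unconfined and 0.125%, 0.112% and 0.101% in confined libraries. The means were 0.154% ± 0.0099 and 0.113% ± 0.0120 (SD, n = 3 each), a ratio of 0.733. Under this scaling the middle fold change (log2) was -0.68 among tested peaks and -0.09 among tested gene sums over all linked peaks. Sets of peaks drawn from the whole table were not compared. The lower share is therefore not read as particular to these loci. The 44 peaks are 0.103% of all peaks, so confined libraries 2 and 3 put close to an even share of their counts there. The exact two-sided permutation test of 3 against 3 libraries cannot go below p = 0.1, and no share can pass 0.05.

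Lyl1 peaks held 0.0544%, 0.0421% and 0.0524% of counts without confinement and 0.0299%, 0.0271% and 0.0172% with it, with means of 0.0497% ± 0.0066 and 0.0247% ± 0.0067 (SD, n = 3 each, exact permutation p = 0.1). The largest confined value, 0.0299%, has a 95% Clopper-Pearson interval of 0.0244% to 0.0363%, below that of every unconfined library (lowest bound 0.0386%). These intervals cover counting error only. Tal1 peaks held 0.0161% against 0.0090% on average, Gata2 peaks 0.0190% against 0.0147%, and Zfpm1 peaks 0.0400% against 0.0337%. These 3 genes were lower without overlap, each at the smallest exact permutation p of 0.1, but the Zfpm1 difference turned with tested peaks as the total. How many of all genes show no overlap was not counted, so this does not set the members apart. Ldb1 (0.0116% and 0.0104%, exact p = 0.3) and Lmo2 (0.0172% and 0.0202%, exact p = 0.2) overlapped between groups. Per peak of equal width, unconfined libraries gave the order Lyl1 (49.7 ± 6.61 CPM of all counts), Tal1 (40.3 ± 5.18), Zfpm1 (33.4 ± 0.976), Ldb1 (29.1 ± 2.82), Gata2 (27.1 ± 0.374) and Lmo2 (24.6 ± 0.974; SD, n = 3 each). Within each unconfined library, every neighbour in this order held except Ldb1 above Gata2, which held in 2 of 3 libraries. Over the 3 libraries the ranges of Lyl1 and Tal1, of Tal1 and Zfpm1, and of Ldb1 and Gata2 overlapped. In confined libraries the 6 means lay between 21.0 (Gata2) and 28.9 (Lmo2), and the ranges of all neighbours in the order overlapped.

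**Figure D4:**
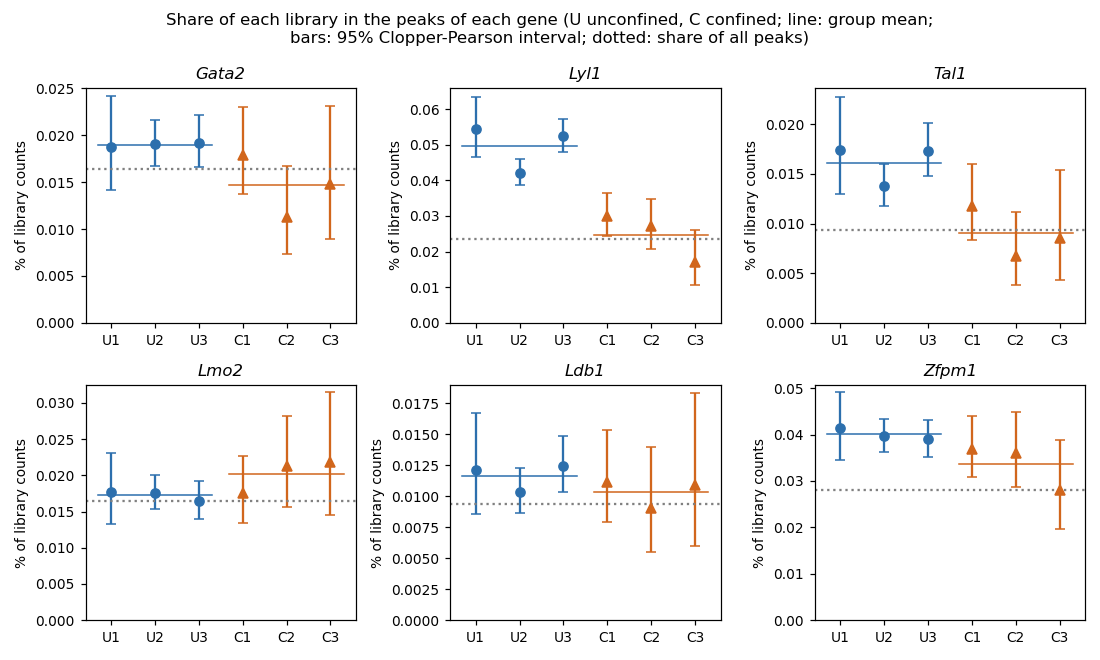
Percent of each library's counts in the peaks of each gene (U1 to U3 unconfined, C1 to C3 confined), with 95% Clopper-Pearson intervals, group means as lines and the gene's share of all peaks as a dotted line. All 3 confined Lyl1 values lie below all 3 unconfined ones (0.0247% against 0.0497% on average), and the intervals of the groups do not overlap there. At every other gene, some confined and unconfined intervals overlap.

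Other genes of the module's pathway were taken from 3 lists. Among DNA-binding partners and bridging factors (E proteins, RUNX1, the ETS factors FLI1 and ERG, and SSBP proteins that bind LDB1), 14 of 16 genes had a peak, and 0 of 14 tested peaks was lower and 0 higher (median log2 fold change -0.39). The peak with the smallest p there belonged to Fli1 (-0.99, edgeR adjusted p = 0.0970) and held 23, 70 and 75 counts against 9, 4 and 2, without overlap on the TMM scale. The next was a Runx1 peak (-0.65, adjusted p = 0.231). At an unadjusted p under 0.05 edgeR placed 1 of these peaks lower and 0 higher, and DESeq2 and limma-voom called 0. Among co-repressors and chromatin enzymes that the module recruits, all 11 genes had a peak and 0 of 15 tested peaks passed in either direction (median -0.23). The peaks with the smallest p belonged to Sin3a, a co-repressor scaffold (-1.22, adjusted p = 0.0792), and Hdac1, a histone deacetylase (-1.13, adjusted p = 0.0926). Here edgeR placed 4 lower and 1 higher at an unadjusted p under 0.05, DESeq2 called the Sin3a peak lower, and limma-voom called 1 peak higher, at Chd4, a chromatin remodeller.

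Among textbook target genes in stem, red cell and platelet precursors, 17 of 18 genes had a peak, and 0 of 18 tested peaks passed in either direction (median 0.05). The smallest p belonged to the gene-end peak of Nfe2, which encodes a subunit of a red cell and platelet transcription factor. It held 44, 138 and 155 counts against 18, 6 and 4 (-1.10, SE 0.37, edgeR adjusted p = 0.0524). The Nfe2 peak was the 1 peak of this list under 0.05 unadjusted, limma-voom called it lower, and DESeq2 called 0. The median over all tested peaks was -0.02.

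Marker loci were measured for the labelled cells and for other blood and stromal cells. LT-HSC and sort markers had 32 peaks at 8 of 9 genes (none at Ly6a). Their mean per peak was 19.4 to 22.9 CPM of all counts in unconfined and 23.1 to 24.6 in confined libraries, all confined values above. T cell genes had 1 peak at 1 of 5 genes (11.2 to 16.4 against 9.03 to 39.0), and B cell genes 8 peaks at 4 of 5 genes (13.6 to 18.4 against 17.5 to 22.02). Myeloid genes had 14 peaks at 5 of 6 genes (22.1 to 26.7 against 20.6 to 22.6), and erythroid genes 6 peaks at 4 of 6 (18.0 to 23.5 against 18.8 to 24.7). Megakaryocyte genes had 8 peaks at 3 of 3 genes (32.5 to 37.2 against 18.6 to 32.3), all confined values below. Endothelial and stromal genes had 18 peaks at 4 of 4 genes (15.1 to 17.7 against 20.04 to 28.4), all confined values above. No marker peak was called in either direction by edgeR, DESeq2 or limma-voom, 0 of them had an unadjusted edgeR p under 0.05, and the part of these differences in the member results was not tested. Over all peaks, confined libraries 2 and 3 showed little of the unconfined peak-to-peak pattern (r = 0.0367 and -0.0185). Differences in these per-peak means are therefore not read as changes at marker genes. In these bulk libraries a change in the mix of cells cannot be told apart from a change in each cell.

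The genes whose summed accessibility ran most like each member over the 6 libraries, out of 10027 others, were found by Pearson r of log2 CPM, as a description. For Lyl1 these were Abcf2 and Ndel1 (r = 0.998 each), for Tal1 Naa10 and Dnajc17 (both 0.997), and for Gata2 Rpusd1 (0.999) and Osbpl11 (0.998). For Lmo2 they were Gata6 (0.998) and Gpr142 (0.995), for Zfpm1 Slc8b1 (0.997) and Zfp148 (0.995), and for Ldb1 Zfp935 (0.970) and Wdr60 (0.962). With 6 libraries in 2 groups, many genes reach such values: 387 genes exceeded r = 0.95 with Lyl1 and 4 with Ldb1. None of the nearest genes was itself 1 of the 6 members.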

How the data were processed

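ATAC-seq accessibility was measured in 3 unconfined and 3 confined LT-HSC libraries. The authors deposited raw counts per peak for all 6 libraries and the peak coordinates. The build mm10 and the tools featureCounts, R 4.2.0 and SAMtools 1.14 are named, per the submitters' processing notes, without their roles. The aligner, the handling of duplicates, a shift for the transposase, the peak caller and its input libraries are not given in the sources. Were peaks called mainly in the deeper unconfined libraries, sites open in confined cells alone would be missing.

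Peaks were linked to the nearest protein-coding gene end within 50 kb (RefSeq, GRCm38.p6). The whole table was fitted in R 4.3.3 with edgeR 4.0.16 (TMM, filterByExpr, quasi-likelihood test on group alone, Benjamini-Hochberg, threshold 0.05). The filter asks for 31.0 CPM in 3 libraries and kept 9084 peaks. CPM of single peaks use TMM factors over tested peaks, and shares use all counts. Gene sums were fitted in the same way. Alternatives were other scalings, filters, DESeq2 1.42.0, limma-voom (limma 3.58.1), the replicate block, libraries left out and other link limits. Leaving out peaks inside another gene, and total counts for the count of groups that do not overlap, were added after seeing the data. Where 1 confined library was left, it was assumed to vary like the other group. Exact permutation tests of shares used SciPy 1.17.1 (Python 3.11.15). The fit was tested on simulated data. Of tested simulated 2-fold changes it called 22.4% for peaks and 42.4% for sums over all linked peaks. For gene-end and distal sums it called 26.4% and 54.4%. Of 4-fold changes it called 88.6% for peaks. A peak or gene that did not pass may therefore still differ 2-fold. Of 7952 unchanged simulated peaks, 2 were called. All simulated libraries shared 1 abundance profile apart from the set changes, unlike confined libraries 2 and 3 here. The number of false calls in the simulation therefore need not hold for these data. Replicate numbers are experimental batches in the labels, which is where the pairing comes from. In the counts, deviations of same-numbered libraries from their group means correlated at r = 0.0437, 0.0597 and -0.0470.

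The members and lists were chosen with earlier results of these data known. Named peaks are all gene-end peaks, all tested distal peaks and the 2 distal peaks of each gene with the highest mean log2 CPM. Gata2 at 4.77 kb, Ldb1 at 10.59 and 19.18 kb and Zfpm1 at 22.48 kb are outside this rule and were chosen after their values were seen. For lists without a call, the 2 peaks with the smallest p are named, except 1 peak of the target list that is not reported here.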

Additional observations from a re-analysis of the deposited data

How the results depend on the processing

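Of 709 alternative values, 577 were labelled unchanged. For a fold change this means the same sign and the same side of the threshold. For a share or median it means a move within the replicate spread. A count was labelled so when equal or close, and 3 called lower without unconfined library 1 counted as unchanged from 2. Values that passed no test and stayed so are among the 577, so this total does not measure how firm the calls are. Shares of calls over all features are given above for the main fits only. Of member peaks, 2 were called lower. This number became 6 with total counts, 4 with no filter (and 1 higher), 1 each with the filter on mean log2 CPM, DESeq2, limma-voom and the replicate block, and 0 with loess offsets and with confined library 1 alone. Leaving out 1 library at a time gave 1 to 3 lower (1 without unconfined library 3 or confined library 2) and 0 to 2 higher (2 without confined library 3). Gene sums over all linked peaks (1 lower) gave 2 with total counts and no filter, 0 with confined library 1 alone, and 1 to 2 lower with 1 library left out. Gene-end sums (1 lower) gave 3 with total counts, 0 with loess offsets and confined library 1 alone, and 0 to 1 lower and 0 to 1 higher with 1 library left out. Distal sums (2 lower) gave 1 with total counts, the mean filter and DESeq2, 0 with loess offsets and confined library 1 alone, and 1 to 3 with 1 library left out (3 without confined library 1). The replicate block changed the calls of the Gata2 peak at 9.34 kb and the Gata2 distal sum, given in the text with their values, and no other call. The share difference of -0.0410 percentage points became -0.0285 with confined library 1 alone and -0.0294 without the peaks inside Nfix.

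Signs that turned were those of values that passed no test. With total counts, these were Lyl1 24.65 kb (-0.014) and 36.44 kb (-0.32), Tal1 6.64 kb (-0.24), Lmo2 -11.95 kb (-0.019), Ldb1 14.08 kb (-0.27), Zfpm1 12.47 kb (-0.28) and 27.64 kb (-0.38), and the distal sums of Lmo2 (0.10) and Zfpm1 (0.088). With loess offsets, they were Tal1 6.64 kb (-0.48), Ldb1 14.08 kb (-0.12), Zfpm1 3.03 kb (0.068) and 12.47 kb (-0.090), and the distal sums of Lmo2 (0.012) and Zfpm1 (0.11). With no filter, they were Lyl1 24.65 kb (-0.19) and 36.44 kb (-0.57), Tal1 6.64 kb (-0.43), Lmo2 -11.95 kb (-0.21), Ldb1 14.08 kb (-0.49) and Zfpm1 12.47 kb (-0.50), 27.64 kb (-0.60) and 49.41 kb (-0.17). With the replicate block it was Zfpm1 3.03 kb (0.030). With confined library 1 alone, they were Lyl1 24.65 kb (-0.079), Tal1 6.64 kb (-0.033), Lmo2 -11.95 kb (-0.32), Ldb1 14.08 kb (-0.46) and Zfpm1 12.47 kb (-0.32), 27.64 kb (-0.51) and 49.41 kb (-0.21). With 1 library left out, ranges that crossed 0 were -0.80 to 0.0038 (Lyl1 21.69 kb), -0.039 to 0.65 (Lyl1 24.65 kb), -0.24 to 0.36 (Lyl1 36.44 kb), -0.12 to 0.39 (Tal1 6.64 kb), -0.047 to 0.51 (Ldb1 14.08 kb), -0.17 to 0.33 (Zfpm1 12.47 kb), -0.26 to 0.34 (Zfpm1 27.64 kb) and -0.21 to 0.0079 (Ldb1 sum over all linked peaks). With tested peaks as the total, the share differences of Ldb1 (0.0018 percentage points) and Zfpm1 (0.00013) turned. The cause was not tested. The low counts of confined libraries 2 and 3 limit every single peak.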
